A study of Homo sapiens with 4 samples.

Results

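H441 and HT29 are human epithelial cancer cell lines, H441 from a lung adenocarcinoma and HT29 from a colorectal adenocarcinoma. Their poly(A) RNA was compared here after 7 days in RPMI-1640, a conventional culture medium, with 10% FBS and 1% P/S as the labels abbreviate the supplements, and with both lines labelled WT. The comparison took the 3 H441 and the 3 HT29 columns grown in RPMI-1640, 6 of the 12 columns of the series, joined on gene identifier. Each column is called a library. The series lists 4 samples, 1 for each line in each of RPMI-1640 and HPLM, a medium with small molecules near their plasma levels, and each sample has 3 libraries numbered 1 to 3. Of 58051 gene identifiers, 16849 had at least 1 TPM (a level per gene length and per library total) in at least 3 of the 6 libraries and were tested. By its title, the series is about how amino acids bear on mRNA brought in by lipid nanoparticles. The labels name no separate cultures behind the 3 libraries of a sample, and the p-values below cover only the spread between libraries, which may be technical. Line, tissue of origin, patient and culture history cannot be told apart with 1 line of each origin.

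Lung and intestinal epithelium both arise from endoderm, and each keeps its own set of transcription factors. NKX2-1 with FOXA factors directs surfactant and secretory genes in the lung, while CDX2 with HNF4 factors directs brush border, mucin and transport genes in the gut. HOX genes record position along the body axis, and Wnt signalling through beta-catenin keeps crypt genes on in the colon and in most colorectal cancers. Cancer lines keep part of these programmes and lose or add others, so levels in a line need not match those of its tissue.

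In RPMI-1640 the lines differed in their surfactant, intestinal, HOX and Wnt genes, in antigen presentation and interferon-stimulated genes, and in caveolar, matrix and detoxification genes. Limma called 7924 of the 16849 genes (47.0%) at an adjusted p under 0.05, of which 4383 (26.0%) were higher in H441 and 3541 (21.0%) in HT29. With a difference of at least 1 on the log2 scale, a 2-fold change of TPM + 1, 2861 were higher in H441 (17.0%) and 2232 in HT29 (13.2%). Ranges of the 3 libraries did not overlap for 5460 genes higher in H441 (32.4%) and 4541 higher in HT29 (27.0%). 1163 genes stood at 1 TPM or more in all H441 libraries and under 1 TPM in all HT29 libraries, and 1030 the other way. All differences below are H441 minus HT29 on the log2(TPM + 1) scale, with the standard error, so a positive value is a higher level in H441, and at a low TPM the added 1 makes such a difference smaller than the change itself. Gene coordinates are from GENCODE on GRCh38. The median difference over all genes tested was 0.11, and trimmed mean scaling lowered it by 0.10, so list medians are to be read against 0.11. The TPM tables of the lines were made separately, and levels set across them rest on the per-library scaling of TPM. After trimmed mean scaling limma called 25.0% higher in H441 and 23.8% in HT29. EdgeR on recovered reads, for genes in either line's count table, called 53.3%, with 25.7% higher in H441 and 27.6% in HT29. By edgeR the direction with more calls was therefore HT29. Values given as a pair with ± are means and SDs over 3 libraries, H441 first and HT29 second.

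HT29 library 1 stood apart from HT29 libraries 2 and 3. Its correlation with them over log2(TPM + 1) was 0.924 and 0.913, against 0.989 between those 2. The chi-square per degree of freedom of its recovered reads was 194 with library 2 and 252 with library 3. It was 13.6 between libraries 2 and 3 and 1.86 to 6.68 between H441 libraries. It had the fewest reads, 14.2 M against 15.2 to 30.6 M in the others, and the lowest share of mitochondrially encoded transcripts, 19.3% against 24.1 to 30.2%. The median SD of a gene over libraries was 0.090 in H441 and 0.348 in HT29 on the log2 scale, and 0.099 in HT29 without library 1. Without it, limma called 12655 genes (75.1%), 7355 higher in H441 (43.7%) and 5300 higher in HT29 (31.5%). Of the 7924 genes called with all libraries, 7898 kept the same call, 26 were not called and 0 had the opposite call. Library 1 lay on the H441 side of the mean of libraries 2 and 3 in 69.2% of the genes called without it. Results are therefore given with and without it, and how library 1 came to differ was not tested. List counts below are to be read against the shares over all genes tested. These are 26.0% and 21.0% with all libraries, and 43.7% and 31.5% without library 1.

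**Figure D1:**
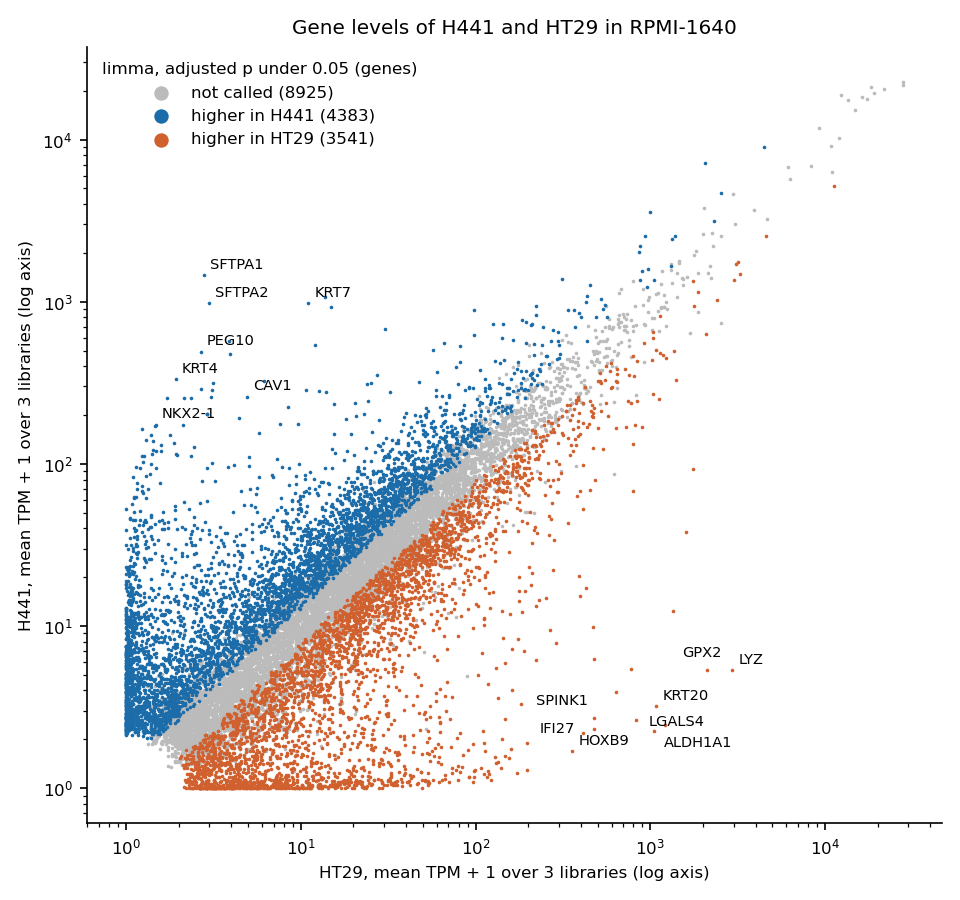
Mean TPM + 1 of each gene tested in HT29 (x, log axis) and in H441 (y, log axis), over 3 libraries each, coloured by the limma call with all 6 libraries. Of the genes named in the plot, SFTPA1, SFTPA2, PEG10 and KRT4 lie far above the diagonal and LYZ, ALDH1A1, GPX2, KRT20 and LGALS4 far below it, and 8925 genes were not called.

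The genes with the largest differences were surfactant and lineage genes together with secreted enzymes, detoxification genes and imprinted or retrotransposon-derived genes. In values for libraries 1, 2 and 3, here and below, SFTPA1 (ENSG00000122852, chromosome 10, 79610939 to 79615455, GRCh38), which encodes surfactant protein A of the alveolar lining, stood at 1424, 1465 and 1468 TPM in H441 against 2.99, 1.76 and 0.609 TPM in HT29. That difference was 9.12 ± 0.33 (adjusted p = 7.66e-06, and 9.43 ± 0.23 without HT29 library 1) by limma with Benjamini-Hochberg adjustment. Its neighbour SFTPA2 (ENSG00000185303, chromosome 10, 79555852 to 79560402) stood at 953, 982 and 998 TPM in H441 against 3.82, 1.26 and 0.869 TPM in HT29, and since both copies are near-identical, how their reads were split is uncertain. In HT29, library 1 held the most of both, still under 4 TPM. KRT4 (ENSG00000170477, chromosome 12, 52806549 to 52814551), a keratin of stratified epithelium, stood at 333, 345 and 317 TPM in H441 against 1.40, 0.907 and 0.479 TPM in HT29, a difference of 7.46 ± 0.20 (adjusted p = 4.10e-06, and 7.63 ± 0.13 without HT29 library 1). PEG10 (ENSG00000242265, chromosome 7, 94656325 to 94669695), an imprinted gene derived from a retrotransposon, stood at 496, 503 and 477 TPM in H441 against 2.77, 1.74 and 0.530 TPM in HT29. LDOC1, another gene of retrotransposon origin, stood at 163 ± 6.05 against 0.235 ± 0.149 TPM. No H441 library of these genes came near an HT29 library, but ranges that did not overlap were a condition for naming the largest differences.

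Secreted enzymes and matrix proteins were among the genes with the largest differences toward H441. PLAU, the urokinase that activates plasminogen, stood at 481, 487 and 464 TPM in H441 against 1.90, 3.85 and 3.01 TPM in HT29. PLAT, the tissue-type activator, stood at 139 ± 1.18 against 0.303 ± 0.153 TPM. EFEMP1, an extracellular matrix glycoprotein, stood at 254 ± 1.64 against 0.711 ± 0.620 TPM. RNASE1, a secreted ribonuclease, stood at 254 ± 5.58 against 1.15 ± 0.440 TPM. All 4 had ranges far apart, as the rule for the largest differences required of ranges not to overlap, with differences of 6.96, 6.76, 7.28 and 6.91. BASP1, a membrane protein of neurons that also represses transcription, stood at 289 ± 9.06 against 1.69 ± 1.49 TPM. KCNS3, a silent subunit of voltage-gated potassium channels, stood at 149 ± 12.2 against 0.385 ± 0.413 TPM. RPL39L, a testis-enriched copy of a ribosomal protein gene, stood at 252 ± 32.5 against 1.35 ± 0.894 TPM. RAB34, a GTPase of macropinocytosis and cilium formation, stood at 169 ± 7.77 against 0.472 ± 0.163 TPM. KRT16P2, a keratin pseudogene, was listed at 569 ± 4.60 against 2.89 ± 0.262 TPM, but it shares sequence with KRT16 and other copies, so its reads are uncertain.

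On the HT29 side, LYZ (ENSG00000090382, chromosome 12, 69348341 to 69354234), which encodes lysozyme, stood at 3.95, 5.54 and 3.54 TPM in H441 against 4356, 2427 and 2002 TPM in HT29. Its difference was -9.03 ± 0.32 (adjusted p = 7.43e-06, and -8.71 ± 0.19 without HT29 library 1). GPX2 (ENSG00000176153, chromosome 14, 64939152 to 64942905), the glutathione peroxidase of the gastrointestinal tract, stood at 4.74, 5.19 and 3.19 TPM in H441 against 1712, 2365 and 2226 TPM in HT29, a difference of -8.62 ± 0.21 (adjusted p = 3.73e-06, and -8.76 ± 0.18 without HT29 library 1). ALDH1A1 (ENSG00000165092, chromosome 9, 72900662 to 73080442), a retinaldehyde dehydrogenase, stood at 1.83, 1.01 and 0.934 TPM in H441 against 1085, 972 and 1075 TPM in HT29. AKR1B10, an aldo-keto reductase, stood at 11.3 ± 2.46 against 1339 ± 407 TPM. TM4SF4 and TSPAN8 encode membrane proteins with 4 spans, and stood at 1.46 ± 0.620 against 1219 ± 266 TPM and at 1.20 ± 0.271 against 413 ± 196 TPM. KLK6, a kallikrein protease, stood at 2.93 ± 0.444 against 637 ± 86.6 TPM. NTSR1, the neurotensin receptor, stood at 0.287 ± 0.0746 against 196 ± 24.8 TPM. SNCG, a synuclein, stood at 4.43 ± 0.975 against 771 ± 352 TPM. For each of these genes the HT29 libraries all lay above the H441 libraries. The rule that picked the largest differences required such ranges, so this is no separate result.

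The lung transcription factor NKX2-1 (ENSG00000136352, chromosome 14, 36516392 to 36521149) separated the lines: it stood at 174, 174 and 174 TPM in H441 against 0.848, 0.330 and 0.266 TPM in HT29, a difference of 6.90 ± 0.18 (adjusted p = 3.80e-06, and 7.07 ± 0.06 without HT29 library 1). Of 14 tested lung transcription factors, 7 were higher in H441 and 5 in HT29 (8 and 5 without HT29 library 1), with a median difference of 0.69. HOPX, a homeodomain protein of alveolar cells, stood at 66.8, 68.3 and 61.0 TPM in H441 against 0.472, 0.0505 and 0.229 TPM in HT29. FOXA1, a pioneer factor of endoderm, was in both lines, at 178, 182 and 190.3 TPM in H441 against 48.9, 48.7 and 46.2 TPM in HT29, and was higher in H441 by 1.91 ± 0.11 (adjusted p = 4.60e-05, and 1.93 ± 0.07 without HT29 library 1). Its relative FOXA2 (ENSG00000125798, chromosome 20, 22581005 to 22585455) went the other way, at 1.34, 1.11 and 0.869 TPM in H441 against 23.6, 41.2 and 43.4 TPM in HT29, a difference of -4.10 ± 0.26 (adjusted p = 6.33e-05, and -4.37 ± 0.11 without HT29 library 1). IRX3 was higher in H441, at 5.17 ± 0.752 against 0.154 ± 0.112 TPM, and IRX2 in HT29, at 1.44 ± 0.167 against 20.2 ± 0.996 TPM, both Iroquois homeodomain factors. GATA6, a zinc finger factor of lung and gut, stood at 4.58 ± 0.172 against 36.7 ± 3.19 TPM. TBX3, a T-box factor, stood at 0.0324 ± 0.0383 against 6.76 ± 2.80 TPM.

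Intestinal transcription factors were mostly higher in HT29: of 14 tested, 2 were higher in H441 and 11 in HT29 (3 and 11 without HT29 library 1), with a median of -1.97. HNF4A (ENSG00000101076, chromosome 20, 44355700 to 44434596), a nuclear receptor of liver and gut epithelium, stood at 0.0198, 0.0608 and 0.0728 TPM in H441 against 36.9, 13.8 and 13.6 TPM in HT29, a difference of -4.26 ± 0.39 (adjusted p = 0.000301, and -3.81 ± 0.07 without HT29 library 1). ONECUT2, a cut-homeodomain factor, stood at 0.836 ± 0.0887 against 22.9 ± 4.999 TPM. CDX2 (ENSG00000165556, chromosome 13, 27962137 to 27971139), the homeodomain factor that specifies intestine, was low in HT29, at 0, 0.0539 and 0 TPM in H441 against 3.79, 6.05 and 6.30 TPM in HT29, but was higher there than in H441 by a difference of -2.62 ± 0.19 (adjusted p = 0.000122, and -2.82 ± 0.07 without HT29 library 1). CDX1 did not pass the filter and stood at 0, 0.743 and 0.637 TPM in HT29 (listed at 0 in all 3 H441 libraries). Among the members higher in H441, against the name of the list, was VDR, the vitamin D receptor, at 41.9 ± 0.766 against 23.98 ± 10.2 TPM.

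The promoters of the genes that set the lines apart were read from the RefSeq promoter table (GRCh38.p14), 250 bases before each gene's start. Of 16849 tested genes, 10898 had an entry matched by symbol. On both strands the letters GTTAAT, a homeodomain half-site, stood in 5.52% of 1358 promoters of genes called higher in HT29 by a 2-fold change or more and called again without library 1, in 3.12% of 1890 promoters of genes higher in H441 by the same rule, in 3.32% of all tested genes and in 6.22% of all 27305 promoters of the table. AAAGTCC, of HNF4, stood in 3.68%, 2.17%, 2.51% and 3.20% in the same order, and TTTATNG, of CDX factors, in 7.22%, 5.77%, 5.60% and 9.29%. For CAAGTG, of NKX2 factors, the shares were 9.28%, 7.72%, 7.03% and 9.59%, for TGTTTAC, of FOXA factors, 2.06%, 1.96%, 2.01% and 2.98%, and for TGANTCA, of AP-1, 5.52%, 4.55%, 4.15% and 6.60%. Matches of different motifs were counted separately, also where they overlap, and the shares were not tested. Median GC content of these windows was 63.6%, 64.4%, 64.8% and 58.0%. Below are 4 promoters of genes high in HT29 that hold GTTAAT, then those of the surfactant genes, which hold 1 match each to TGTTTAC and to TTTATNG and 0 to CAAGTG. Capitals mark GTTAAT in the former and TGTTTAC in the latter, or their reverse complement. They were chosen after the matches were seen, and a match is only a description of these letters. In both surfactant promoters the TTTATNG match is the reverse complement, the TATA-like letters ctataaa, so it need not mark a CDX site.
KRT20, chr17:40885243-40885492, minus strand: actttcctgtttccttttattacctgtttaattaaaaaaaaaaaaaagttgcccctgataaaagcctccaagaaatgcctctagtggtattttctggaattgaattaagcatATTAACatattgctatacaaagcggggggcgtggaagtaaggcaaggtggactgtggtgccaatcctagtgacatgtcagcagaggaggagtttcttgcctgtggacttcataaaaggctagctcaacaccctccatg
GPX2, chr14:64942746-64942995, minus strand: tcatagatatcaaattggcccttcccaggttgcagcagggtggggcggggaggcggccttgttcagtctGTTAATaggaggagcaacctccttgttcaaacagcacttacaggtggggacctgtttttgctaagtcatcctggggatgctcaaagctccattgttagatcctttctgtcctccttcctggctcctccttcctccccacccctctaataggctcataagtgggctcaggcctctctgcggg
TM4SF4, chr3:149474447-149474696, plus strand: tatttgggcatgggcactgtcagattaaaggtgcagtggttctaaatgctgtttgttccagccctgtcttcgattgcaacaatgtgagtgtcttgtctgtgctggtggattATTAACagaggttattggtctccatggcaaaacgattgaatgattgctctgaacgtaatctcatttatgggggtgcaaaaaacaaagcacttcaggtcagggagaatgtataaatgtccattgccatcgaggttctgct
MUC13, chr3:124934752-124935001, minus strand: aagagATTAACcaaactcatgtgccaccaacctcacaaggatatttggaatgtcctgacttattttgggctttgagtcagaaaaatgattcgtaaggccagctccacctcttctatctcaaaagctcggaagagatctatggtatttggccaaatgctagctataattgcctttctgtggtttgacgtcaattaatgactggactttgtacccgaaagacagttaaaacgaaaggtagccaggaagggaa
SFTPA1, chr10:79610689-79610938, plus strand: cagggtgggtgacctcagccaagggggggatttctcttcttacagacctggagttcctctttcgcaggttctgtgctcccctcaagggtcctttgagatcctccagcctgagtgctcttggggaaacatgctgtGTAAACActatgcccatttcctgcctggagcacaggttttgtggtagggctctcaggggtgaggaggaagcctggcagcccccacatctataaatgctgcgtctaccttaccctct
SFTPA2, chr10:79560408-79560657, minus strand: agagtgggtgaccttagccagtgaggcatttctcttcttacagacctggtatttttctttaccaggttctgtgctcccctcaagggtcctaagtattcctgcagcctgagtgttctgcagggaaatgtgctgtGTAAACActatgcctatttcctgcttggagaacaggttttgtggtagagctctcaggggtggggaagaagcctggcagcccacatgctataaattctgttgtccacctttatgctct
The 2 surfactant promoters were identical in 213 of 254 aligned positions (83.9%). GTTAAT began 138 bases before the start in KRT20, 181 in GPX2, 139 in TM4SF4 and 245 in MUC13, and TGTTTAC 116 bases before it in SFTPA1 and 117 in SFTPA2. These starts are those of the RefSeq table and can differ from GENCODE. For GPX2 the GENCODE gene given above reaches into the window.

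Alveolar and club cell genes were higher in H441 for 10 of 16 tested members and higher in HT29 for 4 (10 and 5 without HT29 library 1), with a median of 1.95, while 8 of 24 did not pass the filter. SLC34A2, the phosphate transporter of alveolar type II cells, stood at 84.4, 85.6 and 75.4 TPM in H441 against 0.0519, 0.111 and 0.139 TPM in HT29, a difference of 6.23 ± 0.12 (adjusted p = 3.73e-06, and 6.20 ± 0.08 without HT29 library 1). MUC1, a transmembrane mucin, stood at 286 ± 23.4 against 2.11 ± 0.757 TPM. SFTPB (ENSG00000168878, chromosome 2, 85657314 to 85668741), which encodes the surfactant protein needed for the surface film, was low even in H441, at 2.61, 1.84 and 1.78 TPM in H441 against 0.0594, 0.0635 and 0.0681 TPM in HT29. SFTPC, the surfactant protein specific to type II cells, stood at 0.0455, 0 and 0 TPM in H441 (listed at 0 in all 3 HT29 libraries). SCGB1A1, the club cell secretoglobin, stood at 0, 0.224 and 0 TPM in HT29 (listed at 0 in all 3 H441 libraries), both under the filter. Some list members were higher in HT29. LAMP3, a lamellar body protein also made in dendritic cells, stood at 1.14 ± 0.674 against 28.5 ± 7.92 TPM. AQP5, a water channel, stood at 0.738 ± 0.276 against 24.1 ± 10.96 TPM. CTSH, a cathepsin that processes surfactant protein, stood at 28.1 ± 0.765 against 75.1 ± 19.98 TPM. CYP2B6, a cytochrome P450, stood at 0.0135 ± 0.0233 against 6.81 ± 5.04 TPM. Summed TPM of 12 lung markers was 2844 to 2921 in the H441 libraries and 28.8 to 40.8 in the HT29 libraries, and 4 of the 12 never reached 1 TPM. In bulk RNA a lower share of cells with a transcript and less of it per cell cannot be told apart.

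Enterocyte and brush border genes ran the other way. Of 17 tested members, 3 were higher in H441 and 12 in HT29 (the same numbers without HT29 library 1), with a median of -2.05, and 16 of 33 did not pass the filter. KRT20 (ENSG00000171431, chromosome 17, 40875941 to 40885227), the keratin of the differentiated gut epithelium, stood at 1.49, 3.49 and 1.66 TPM in H441 against 1504, 875 and 863 TPM in HT29, a difference of -8.40 ± 0.32 (adjusted p = 9.78e-06, and -8.13 ± 0.27 without HT29 library 1). LGALS4, a galectin of intestinal cells, stood at 2.19, 1.60 and 1.11 TPM in H441 against 511, 1004 and 979 TPM in HT29. USH1C and CDHR5, which tie brush border microvilli together, stood at 0.165 ± 0.0253 against 91.2 ± 16.3 TPM and at 0.225, 0 and 0.0343 TPM in H441 against 32.6, 94.2 and 81.3 TPM in HT29. VIL1 (ENSG00000127831, chromosome 2, 218419092 to 218453295), the actin bundler villin, stood at 0.566, 0.546 and 0.769 TPM in H441 against 90.9, 37.3 and 31.7 TPM in HT29, and CDH17, the liver-intestine cadherin, at 0.0372, 0.114 and 0.0341 TPM in H441 against 4.005, 3.25 and 2.99 TPM in HT29. All of these had ranges apart, and library 1 held more VIL1 and KRT20 and less LGALS4 and CDHR5 than the other HT29 libraries. Members higher in H441 were ESPN, another actin bundler, at 4.59 ± 0.226 against 1.31 ± 0.653 TPM. PLS1, the intestinal plastin, stood at 147 ± 1.32 against 67.1 ± 26.1 TPM. GPA33, a surface antigen of colon epithelium, stood at 5.62, 6.60 and 4.78 TPM in H441 against 3.51, 2.82 and 1.63 TPM in HT29. FABP1, a fatty acid binding protein of absorptive cells, did not pass the filter and stood at 0.198, 0.106 and 0 TPM in HT29 (listed at 0 in all 3 H441 libraries). Summed TPM of 11 colonic markers was 150.2 to 156 in the H441 libraries and 2029 to 2156 in the HT29 libraries.

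Mucin and other secretory genes were called in both directions. Of 11 tested members of the goblet, mucin and trefoil list, 3 were higher in H441 and 8 in HT29 (the same numbers without HT29 library 1), with a median of -4.25. The 3 higher in H441 were transmembrane mucins: MUC1 (above), MUC4, at 32.2 ± 4.76 against 0.302 ± 0.183 TPM, and MUC20, at 40.6 ± 1.01 against 16.4 ± 3.94 TPM. MUC13, also a transmembrane mucin, was higher in HT29, at 0.787, 0.953 and 0.950 TPM in H441 against 255, 167 and 164 TPM in HT29, a difference of -6.67 ± 0.20 (adjusted p = 5.11e-06, and -6.46 ± 0.07 without HT29 library 1). SPINK1, a trypsin inhibitor, stood at 1.71 ± 0.0562 against 475 ± 225 TPM. AGR3, a disulfide isomerase of secretory cells, stood at 0.265 ± 0.0969 against 80.2 ± 6.45 TPM. MUC2, the main gel-forming mucin of colon goblet cells, did not pass the filter and stood at 0.173, 0.814 and 0.752 TPM in HT29 (listed at 0 in all 3 H441 libraries). TFF1, a trefoil peptide of gastric mucus, stood at 0, 0 and 0.241 TPM in H441 against 61.6, 14.2 and 21.7 TPM in HT29, highest in library 1. Of 19 endocrine cell genes only 2 were tested: SCG5, a secretogranin, stood at 10.8 ± 2.01 against 1.84 ± 0.749 TPM. DDC, the aromatic amino acid decarboxylase, stood at 0.1004 ± 0.0972 against 31.4 ± 29.8 TPM.

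**Figure D2:**
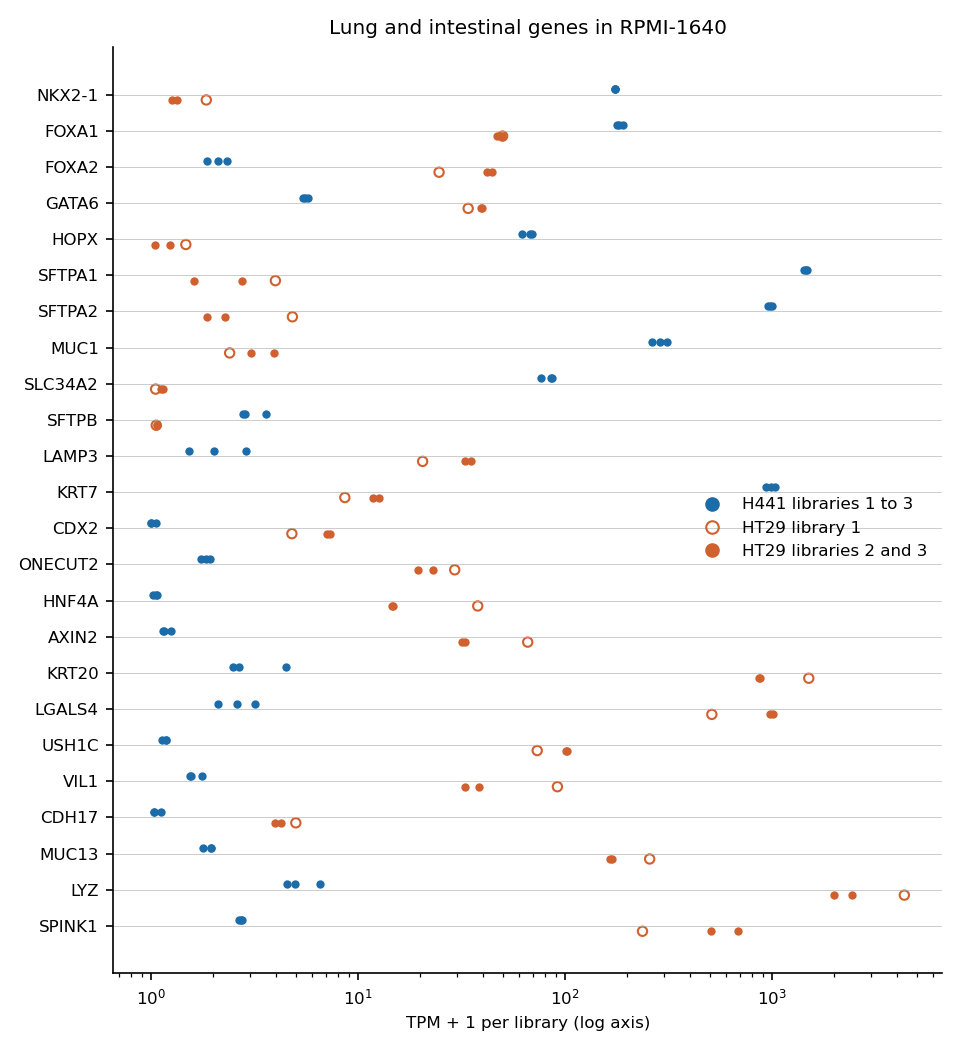
TPM + 1 (log axis) of lung and intestinal genes in each of the 6 libraries, H441 in blue, HT29 in orange with library 1 as an open circle. The H441 libraries lie within a narrow range, NKX2-1, HOPX, SFTPA1, SFTPA2, MUC1, SLC34A2 and KRT7 lie to the right in H441, and FOXA2, GATA6, LAMP3 and the intestinal genes from CDX2 to SPINK1 lie to the right in HT29.

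HOX genes gave the most one-sided of the 44 lists by share of members called in 1 direction. Of 39 HOX genes 27 were tested, 26 were higher in HT29 and 1 in H441 with and without HT29 library 1, with a median of -4.02, while over all genes tested 21.0% were higher in HT29. HOXB9 (ENSG00000170689, chromosome 17, 48621159 to 48626356), of the posterior HOXB cluster, stood at 0.562, 0.947 and 0.567 TPM in H441 against 244, 420.2 and 403 TPM in HT29, a difference of -7.69 ± 0.25 (adjusted p = 5.67e-06, and -7.94 ± 0.12 without HT29 library 1). HOXB7 and HOXB6 stood at 0.541 ± 0.407 against 155 ± 6.28 TPM and at 0.225 ± 0.127 against 119 ± 44.2 TPM. HOXC4, at the anterior end of the HOXC cluster, stood at 0.266, 0 and 0.0976 TPM in H441 against 31.9, 94.9 and 109 TPM in HT29. HOXA members from HOXA2 to HOXA13 were all higher in HT29, and none of them was above 1 TPM in H441. HOXD1 was the exception, at 7.42, 9.90 and 10.6 TPM in H441 against 0, 0.0661 and 0 TPM in HT29, and the other 8 HOXD members did not pass the filter. Library 1 lay below libraries 2 and 3 for 21 of the 27 members, against 36.9% of all genes tested. Every called member had the same direction without library 1. Neighbouring HOX genes and antisense transcripts overlap, and with a library kit that does not mark strand their reads cannot be told apart.

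**Figure D3:**
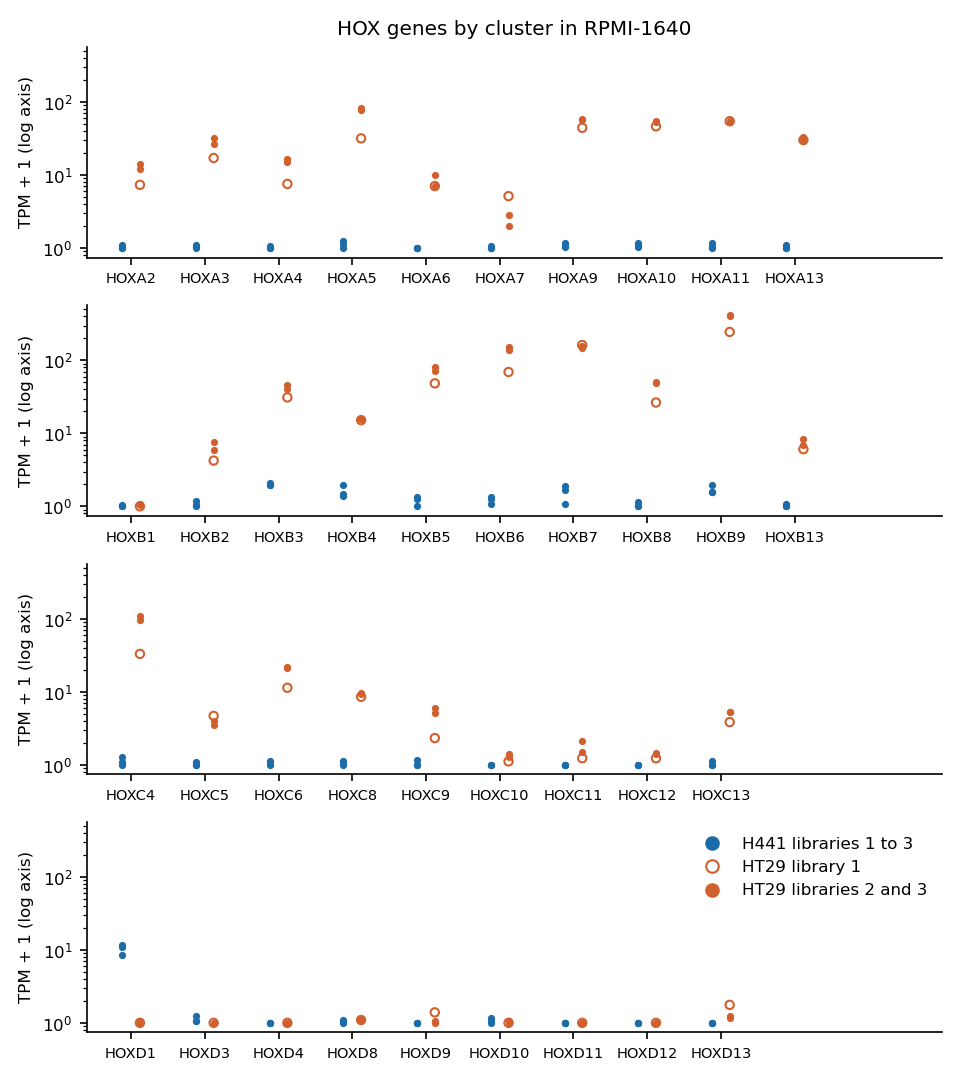
TPM + 1 (log axis) of HOX genes in the 6 libraries, by cluster A to D, in order along the cluster. HOXA, HOXB and HOXC members lie higher in HT29 than in H441, apart from HOXB1, with HOXC10 to HOXC12 low in both lines, and HOXD1 lies above 7 TPM in H441 only.

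Wnt and crypt genes were mostly higher in HT29: of 18 tested, 2 were higher in H441 and 12 in HT29 (4 and 13 without HT29 library 1), with a median of -2.36. AXIN2 (ENSG00000168646, chromosome 17, 65528563 to 65561647), a feedback inhibitor that beta-catenin induces, stood at 0.139, 0.255 and 0.153 TPM in H441 against 65.0, 32.001 and 30.8 TPM in HT29, a difference of -5.12 ± 0.30 (adjusted p = 4.75e-05, and -4.78 ± 0.08 without HT29 library 1). CD44, a hyaluronan receptor, stood at 0.735, 1.55 and 0.701 TPM in H441 against 209.8, 108 and 104 TPM in HT29. PROM1, which encodes CD133, stood at 0.234, 0.239 and 0.161 TPM in H441 against 46.002, 24.9 and 24.5 TPM in HT29. BMP4, a BMP ligand, stood at 3.9997, 5.84 and 5.74 TPM in H441 against 308, 193 and 164 TPM in HT29. In all 4 library 1 lay above the other HT29 libraries, as it did for 16 of the 18 members and 53.1% of all genes tested. EPHB2, an ephrin receptor of crypt cells, was higher in H441, at 14.9 ± 0.689 against 2.27 ± 0.895 TPM, as was AMACR, a racemase overexpressed in colorectal tumours, at 2.22 ± 0.689 against 0.965 ± 0.0862 TPM. LGR5, the receptor that marks crypt stem cells, did not pass the filter and reached 1 TPM in HT29 library 1 alone (0.0829, 0 and 0 TPM in H441 against 2.84, 0.0995 and 0.124 TPM in HT29).

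Both lines were epithelial by their markers, with different keratins. EPCAM (ENSG00000119888, chromosome 2, 47345158 to 47387601), the epithelial adhesion molecule, stood at 856, 866 and 894 TPM in H441 against 979, 1085 and 1259 TPM in HT29 and did not pass the test, with a difference of -0.34 ± 0.14 (adjusted p = 0.0923, and -0.42 ± 0.09 without HT29 library 1), where the p without that library was 0.00799. Of 15 tested keratins, 5 were higher in H441 and 4 in HT29, and 6 and 8 without HT29 library 1, which turned the direction with more calls. KRT7 (ENSG00000135480, chromosome 12, 52232520 to 52252186), the keratin of ducts and lung epithelium, stood at 991, 1028 and 931 TPM in H441 against 7.63, 11.6 and 10.8 TPM in HT29, a difference of 6.50 ± 0.18 (adjusted p = 4.24e-06, and 6.33 ± 0.08 without HT29 library 1), so the lines had opposite KRT7 and KRT20 levels. KRT19, of simple epithelia, stood at 2019.7 ± 66.8 against 864 ± 127 TPM. KRT18, the partner of KRT8, stood at 1367 ± 42.1 against 3025 ± 956 TPM. KRT15 and KRT6A, of basal and stressed epithelium, stood at 27.5 ± 0.918 against 4.24 ± 0.307 TPM and at 1.84 ± 0.486 against 0.0278 ± 0.0482 TPM. KRT17 and KRT23 were higher in HT29, at 0.381 ± 0.127 against 13.2 ± 7.37 TPM and at 0.0255 ± 0.0442 against 6.68 ± 0.578 TPM. Of 28 junction genes 10 were higher in H441 and 7 in HT29 (12 and 13 without HT29 library 1). CDH3, P-cadherin, stood at 231 ± 5.90 against 14.5 ± 5.22 TPM. CDH1, E-cadherin, stood at 352 ± 9.92 against 203 ± 18.3 TPM. OCLN, which encodes occludin of tight junctions, stood at 34.6 ± 1.21 against 9.10 ± 1.74 TPM. DSP, the desmosomal plakin, stood at 12.2 ± 0.225 against 39.7 ± 8.33 TPM. Claudins, which set the permeability of tight junctions, were called in both directions: CLDN8 had 11.9 ± 0.958 TPM in H441 (listed at 0 in all 3 HT29 libraries), and CLDN10 7.51 ± 0.391 against 0.593 ± 0.265 TPM. CLDN3 had 19.2 ± 3.65 against 175 ± 83.4 TPM, and CLDN2, a pore-forming claudin, 0.510, 0.456 and 0.351 TPM in H441 against 355, 19.9 and 22.6 TPM in HT29. The CLDN2 level of library 1 was the highest of all libraries, and its difference was -5.28 with all libraries and -3.95 without it.

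Mesenchymal and matrix genes were called higher in H441 more often than in HT29. Of 17 tested mesenchymal genes, 10 were higher in H441 and 1 in HT29 (12 and 4 without HT29 library 1), with a median of 1.05. TGFBI (ENSG00000120708, chromosome 5, 136028895 to 136063818), a matrix protein induced by TGF-beta, stood at 936, 952 and 895 TPM in H441 against 17.3, 13.7 and 10.9 TPM in HT29, a difference of 5.98 ± 0.18 (adjusted p = 5.11e-06, and 6.13 ± 0.11 without HT29 library 1). FN1, fibronectin, stood at 51.02 ± 1.94 against 0.905 ± 0.157 TPM. LOXL2, which crosslinks collagen, stood at 12.4 ± 0.576 against 0.0666 ± 0.0244 TPM. CDH11, a cadherin of mesenchyme, stood at 13.4 ± 0.165 against 0.0447 ± 0.0207 TPM. VIM (ENSG00000026025, chromosome 10, 17228259 to 17237593), the intermediate filament vimentin, was low in both lines, at 3.54, 3.62 and 3.35 TPM in H441 against 3.27, 2.63 and 1.65 TPM in HT29, and did not pass the test (0.38 ± 0.20 (adjusted p = 0.160, and 0.54 ± 0.15 without HT29 library 1), where the p without that library was 0.0207). S100A4, a calcium-binding protein, was higher in HT29, at 128 ± 21.3 against 235 ± 41.6 TPM. Among 25 integrin, laminin and collagen genes, 11 were higher in H441 and 5 in HT29 (13 and 7). COL1A1, of fibrillar collagen, stood at 35.7 ± 2.46 against 1.34 ± 0.753 TPM, and COL6A1 and COL6A2, of microfibrillar collagen, at 22.7 ± 0.705 against 1.54 ± 0.523 TPM and at 21.4 ± 0.675 against 0.0347 ± 0.0106 TPM. ITGA5, the fibronectin receptor subunit, stood at 13.01 ± 0.317 against 0.143 ± 0.0887 TPM. HT29 held more ITGA6, the laminin receptor subunit, at 6.02 ± 0.234 against 188 ± 92.2 TPM. COL17A1, of hemidesmosomes, stood at 0.249 ± 0.143 against 47.6 ± 17.9 TPM. LAMB1, a laminin chain, stood at 0.455 ± 0.0790 against 60.3 ± 14.998 TPM. COL4A2, of basement membrane, stood at 0.0688 ± 0.0471 against 4.94 ± 0.651 TPM. Of 10 fibroblast markers only COL1A1 and LUM reached 1 TPM in H441, and their summed TPM was 59.9 to 64.2 in H441 and 1.86 to 2.42 in HT29. LUM, a proteoglycan of stroma, stood at 26.1 ± 0.526 against 0.613 ± 0.668 TPM. KDR and TEK, endothelial receptors, stood at 20.2 ± 0.239 against 0.0449 ± 0.0317 TPM and at 1.999 ± 0.465 against 0.183 ± 0.181 TPM, while the 7 endothelial markers summed to 23.1 to 25.0 TPM in H441 and 0.485 to 1.44 TPM in HT29. Leukocyte markers summed to 17.7 to 27.5 TPM in H441 and 32.0 to 55.5 TPM in HT29, and 9 of the 10 reached 1 TPM in some library. CD14, a lipopolysaccharide coreceptor, stood at 1.61, 1.18 and 1.76 TPM in H441 against 6.60, 35.7 and 33.4 TPM in HT29 and was the largest of them in HT29 libraries 2 and 3. CD3D, a chain of the T cell receptor complex named after its values were seen, was the largest in the other 4 libraries, at 7.11 ± 1.34 against 6.29 ± 4.43 TPM. Whether any of these reads came from other cells was not tested.

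Of 23 pathway members and targets of YAP and TEAD, which respond to contact and stiffness, 8 were higher in H441 and 3 in HT29, and without HT29 library 1 16 and 3. WWTR1, which encodes the coactivator TAZ, stood at 47.2 ± 1.71 against 0.383 ± 0.134 TPM. MYOF, a ferlin, stood at 186 ± 6.10 against 27.02 ± 12.2 TPM. CCN1 and CCN2, matricellular genes often read together, went opposite ways: CCN1 had 278 ± 8.42 against 31.4 ± 16.2 TPM, and CCN2 2.72 ± 0.871 against 39.2 ± 19.2 TPM. RBMS3, an RNA-binding protein, stood at 3.25 ± 0.329 against 0.00680 ± 0.00666 TPM. TGFB2, a TGF-beta ligand, stood at 0.912 ± 0.182 against 7.44 ± 0.909 TPM. ASAP1, an ARF regulator, stood at 8.62 ± 0.587 against 39.1 ± 22.8 TPM. Receptor tyrosine kinases and ligands divided about evenly, since of 30 tested 10 were higher in H441 and 9 in HT29 (15 and 11 without HT29 library 1). Among members higher in HT29, the FGF receptors FGFR3 and FGFR2 had 0.0981 ± 0.0195 against 39.7 ± 7.07 TPM and 0.0445 ± 0.0130 against 19.8 ± 2.90 TPM, and FGF19, an enterokine ligand, 0.117 ± 0.158 against 121 ± 89.1 TPM. IGF2, the fetal insulin-like growth factor, stood at 0.0189 ± 0.0179 against 17.4 ± 5.19 TPM. H441 held MET, the receptor of hepatocyte growth factor, at 720.1 ± 19.9 against 206 ± 128 TPM. VEGFC, the lymphatic growth factor, stood at 21.3 ± 1.93 against 0.0180 ± 0.0311 TPM. Downstream, 19 ERK feedback genes gave 7 higher in H441 and 4 in HT29 (10 and 5). FOSL1, an AP-1 subunit that ERK stabilises, stood at 553 ± 17.4 against 65.2 ± 4.55 TPM. CCND1, cyclin D1, stood at 431 ± 12.4 against 129 ± 29.7 TPM. DUSP6, an ERK phosphatase, stood at 112 ± 6.03 against 42.3 ± 6.92 TPM. EPHA4, an ephrin receptor, stood at 6.05 ± 0.174 against 0.0553 ± 0.0378 TPM. Higher in HT29 were PHLDA2, an imprinted gene, at 67.8 ± 4.44 against 448 ± 97.7 TPM. DUSP4, another phosphatase, stood at 2.60 ± 0.382 against 9.27 ± 1.02 TPM. SPRY4, an inhibitor of receptor signalling, stood at 11.7 ± 0.339 against 21.4 ± 4.04 TPM. ETV4, an ETS factor, stood at 45.7 ± 2.55 against 80.3 ± 12.4 TPM.

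In the TGF-beta and BMP pathway, of 26 tested members 7 were higher in H441 and 10 in HT29 (11 and 11 without HT29 library 1). The ligands BMP4 (above) and BMP2, at 0.576 ± 0.223 against 13.4 ± 1.88 TPM, and the inhibitor SMAD6, at 0.459 ± 0.0472 against 24.8 ± 5.60 TPM, were higher in HT29. ID3 and ID2, BMP targets that block bHLH factors, went opposite ways: ID3 had 57.4 ± 2.81 against 1.15 ± 0.321 TPM, and ID2 4.09 ± 0.523 against 43.8 ± 2.78 TPM. LTBP3 and LTBP2, which hold latent TGF-beta in the matrix, stood at 89.8 ± 3.45 against 26.7 ± 7.74 TPM and at 2.95 ± 0.258 against 0.636 ± 0.341 TPM. INHBB, an activin subunit, stood at 6.28 ± 0.662 against 0.0508 ± 0.0880 TPM.

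Interferon-stimulated genes were mostly higher in HT29. Of 35 tested, 0 were higher in H441 and 25 in HT29, with a median of -2.12, and without HT29 library 1 2 and 30 with a median of -1.64. In H441 limma gave 0 at an unadjusted p under 0.05 and edgeR 0. IFI27 (ENSG00000165949, chromosome 14, 94104836 to 94116698), a mitochondrial protein induced by type I interferon, stood at 1.54, 1.18 and 1.25 TPM in H441 against 549.6, 413 and 458 TPM in HT29, a difference of -7.67 ± 0.16 (adjusted p = 3.73e-06, and -7.55 ± 0.10 without HT29 library 1). IFI6, which blocks viral replication membranes, stood at 37.6, 40.1 and 33.5 TPM in H441 against 2696, 972 and 1112 TPM in HT29. OAS2, which senses double-stranded RNA, stood at 2.01, 1.77 and 1.25 TPM in H441 against 344, 49.0 and 46.2 TPM in HT29. IFITM1, which bars viral entry, stood at 13.97, 17.3 and 17.1 TPM in H441 against 774, 264 and 252 TPM in HT29. Library 1 lay above both other HT29 libraries in 31 of the 35 members, against 53.1% of all genes tested. The median excess was 1.37 on the log2 scale against 0.14 over all genes tested. Even so, libraries 2 and 3 alone lay above H441 for IFI27, IFI6, OAS2 and IFITM1. Of 22 nucleic acid and pattern sensors, 5 were higher in H441 and 6 in HT29 (7 and 8). AIM2, the cytosolic DNA sensor of the inflammasome, stood at 43.1 ± 2.13 against 0.298 ± 0.272 TPM. STING1, the adaptor of cGAS, stood at 36.9 ± 2.01 against 10.01 ± 1.44 TPM. TLR2 and TLR5, receptors of bacterial lipopeptide and flagellin, stood at 9.66 ± 0.536 against 0.00740 ± 0.0128 TPM and at 3.40 ± 0.193 against 0.173 ± 0.115 TPM. Among members higher in HT29, TLR3, a receptor of double-stranded RNA, had 0.446 ± 0.130 against 4.35 ± 1.71 TPM, IFIH1, which encodes MDA5, 28.9 ± 1.42 against 79.8 ± 27.6 TPM, its adaptor MAVS 14.5 ± 1.32 against 31.8 ± 4.40 TPM, and the transcription factor IRF3 35.9 ± 1.43 against 80.8 ± 10.8 TPM.

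Class I presentation genes were mostly higher in HT29, and the class II genes called were higher in H441. Of 22 MHC class I genes, 3 were higher in H441 and 17 in HT29 (4 and 17 without HT29 library 1), with a median of -1.37. PSMB9, an immunoproteasome subunit, stood at 4.49 ± 1.14 against 32.7 ± 8.87 TPM. TAP1, the peptide transporter, stood at 10.8 ± 0.392 against 62.3 ± 26.1 TPM. HLA-F and HLA-G, non-classical class I genes, stood at 11.7 ± 0.890 against 74.2 ± 12.7 TPM and at 4.22 ± 0.716 against 30.5 ± 1.05 TPM. Members higher in H441 were CALR, the chaperone calreticulin, at 2198 ± 45.2 against 868 ± 277 TPM. TAPBPL, a peptide editor, stood at 9.63 ± 0.632 against 3.21 ± 1.94 TPM. IRF2, an interferon regulatory factor, stood at 39.4 ± 2.37 against 17.6 ± 2.45 TPM. Of 9 class II genes, 6 were higher in H441 and 0 in HT29 (7 and 0), with a median of 1.15. For the 0 in HT29, limma gave 0 members at an unadjusted p under 0.05 and edgeR 0. CD74, the invariant chain, stood at 49.5, 58.6 and 43.5 TPM in H441 against 11.3, 7.13 and 8.71 TPM in HT29. HLA-DRA, the alpha chain of HLA-DR, stood at 30.9 ± 13.1 against 11.4 ± 3.15 TPM. HLA-DRB1 and HLA-DRB5 stood at 13.1 ± 5.52 against 3.88 ± 1.93 TPM and at 3.13 ± 1.04 against 0.816 ± 0.102 TPM, and since HLA genes are alike and differ in sequence between people, their reads are uncertain. Of 23 cytokines and related genes, 10 were higher in H441 and 6 in HT29 (13 and 6). ICAM1, an adhesion molecule induced by NF-kB, stood at 174 ± 2.66 against 8.70 ± 1.47 TPM. CXCL8, the neutrophil attractant interleukin 8, stood at 42.2 ± 2.94 against 7.30 ± 7.27 TPM. CX3CL1 and CCL2, chemokines of monocytes, stood at 12.9 ± 0.821 against 2.14 ± 1.08 TPM and at 2.02 ± 0.413 against 0.0410 ± 0.0710 TPM. CCL15, another chemokine, was in HT29, at 0.0594 ± 0.0516 against 21.04 ± 2.59 TPM, with TNFSF15 and TNFSF10 (TRAIL), of the TNF family, at 1.36 ± 0.170 against 11.6 ± 0.242 TPM and at 15.8 ± 0.452 against 37.3 ± 8.62 TPM. CXCL1, a chemokine of neutrophils, stood at 0.890 ± 0.3595 against 3.26 ± 2.09 TPM.

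Complement and acute phase genes were called in both directions. CFI, an inhibitor of the alternative pathway, stood at 60.3 ± 2.23 against 0.118 ± 0.127 TPM. LCN2, the iron-scavenging lipocalin, stood at 88.03, 99.8 and 88.2 TPM in H441 against 652, 2171 and 2461 TPM in HT29, with library 1 below the other HT29 libraries. CFB, of the alternative pathway, stood at 0.363 ± 0.0458 against 4.02 ± 1.51 TPM. SERPINA1, alpha-1 antitrypsin, stood at 75.1 ± 2.45 against 149.97 ± 40.5 TPM. C4BPB and C4BPA, chains of the C4b-binding protein, went opposite ways, at 75.9 ± 2.10 against 18.4 ± 5.43 TPM and at 0.335 ± 0.349 against 1.91 ± 0.405 TPM. CP, ceruloplasmin, stood at 5.56 ± 0.461 against 0.758 ± 0.306 TPM. Of 15 complement and acute phase genes tested, 6 were higher in H441 and 4 in HT29 (9 and 5).

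Amino acid transporters, which the title of the series touches on, were higher in HT29 more often. Of 24 tested, 3 were higher in H441 and 12 in HT29 (8 and 14 without HT29 library 1), with a median of -0.52. After trimmed mean scaling the numbers were 1 and 12, and by edgeR on recovered reads 1 and 13. Not all 3 members named below as higher in H441 therefore kept that call. SLC43A1, which carries large neutral amino acids, stood at 1.11, 0.692 and 0.565 TPM in H441 against 45.4, 82.4 and 85.98 TPM in HT29, a difference of -5.29 ± 0.28 (adjusted p = 3.13e-05, and -5.58 ± 0.14 without HT29 library 1). SLC6A8, the creatine transporter, stood at 4.92 ± 0.217 against 147 ± 8.22 TPM. SLC38A5, a glutamine transporter, stood at 0.196 ± 0.0711 against 18.8 ± 13.03 TPM. SLC7A2, a cationic amino acid transporter, stood at 0.0235 ± 0.0204 against 5.37 ± 1.11 TPM. Higher in H441 were SLC7A11, which imports cystine, at 137, 135 and 128 TPM in H441 against 56.7, 93.5 and 77.3 TPM in HT29. SLC6A14, a broad amino acid importer, stood at 2.44 ± 0.461 against 0.176 ± 0.176 TPM. SLC6A6, the taurine transporter, stood at 66.8 ± 1.43 against 49.5 ± 4.71 TPM. Of 38 enzymes of amino acid synthesis and breakdown, 9 were higher in H441 and 14 in HT29, and 18 and 17 without HT29 library 1. PHGDH (ENSG00000092621, chromosome 1, 119648411 to 119744226), which begins serine synthesis, stood at 0.851, 1.54 and 0.899 TPM in H441 against 14.8, 48.8 and 49.8 TPM in HT29, a difference of -4.04 ± 0.48 (adjusted p = 0.000953, and -4.60 ± 0.16 without HT29 library 1). ASS1, of arginine synthesis, stood at 9.94, 12.2 and 11.6 TPM in H441 against 41.2, 249.98 and 258 TPM in HT29. GPT, an alanine transaminase, stood at 0.947, 0.403 and 0.434 TPM in H441 against 3.10, 11.5 and 10.7 TPM in HT29. In these 3, library 1 lay below the other HT29 libraries. OAT, ornithine aminotransferase, stood at 284 ± 5.02 against 58.3 ± 8.10 TPM. MTHFD1, of one-carbon metabolism, stood at 136 ± 3.64 against 44.1 ± 45.1 TPM. IDO1, which breaks down tryptophan, stood at 5.71 ± 0.529 TPM in H441 (listed at 0 in all 3 HT29 libraries). CBS, of transsulfuration, stood at 4.95 ± 0.0918 against 0.00640 ± 0.0111 TPM.

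Detoxification genes were higher in HT29 more often than in H441. Of 33 NRF2 targets and glutathione genes, 8 were higher in H441 and 17 in HT29 (11 and 18 without HT29 library 1), with a median of -0.54. AKR1C1 and AKR1C2, near-identical steroid and carbonyl reductases whose reads are uncertain, stood at 7.39 ± 0.434 against 142 ± 91.2 TPM and at 2.59 ± 0.452 against 133 ± 92.7 TPM. TXNRD1, thioredoxin reductase, was higher in H441, at 1259 ± 46.4 against 449 ± 79.8 TPM. CBR3, a carbonyl reductase, stood at 28.7 ± 1.78 against 0.917 ± 0.174 TPM. HMOX1, heme oxygenase, stood at 38.4 ± 2.23 against 14.8 ± 7.60 TPM. NFE2L2, which encodes NRF2 itself, stood at 97.4 ± 5.82 against 55.1 ± 17.3 TPM. Of 47 drug and aldehyde genes, 14 were higher in H441 and 20 in HT29 (17 and 24). CYP3A5, a P450 of drug oxidation, stood at 0.704 ± 0.0779 against 112 ± 69.5 TPM. UGT1A10, a glucuronosyltransferase of the gut that shares exons with its neighbours, stood at 0.0975 ± 0.0356 against 60.8 ± 35.7 TPM. AKR1B1, aldose reductase, stood at 101 ± 10.5 against 2.13 ± 0.825 TPM, opposite to its relative AKR1B10. ALDH1A3 was opposite to ALDH1A1 too, at 43.8 ± 0.766 against 5.66 ± 3.85 TPM. CYP2J2, an arachidonate epoxygenase, stood at 13.3 ± 2.32 against 0.903 ± 0.208 TPM. ADH1C, an alcohol dehydrogenase, stood at 10.7 ± 0.773 against 0.620 ± 0.0895 TPM. Of 8 metallothionein and zinc genes, 4 were higher in H441 and 2 in HT29. MT2A, a metallothionein, stood at 196 ± 14.5 against 19.8 ± 19.4 TPM, and its relative MT1E at 8.49 ± 1.23 against 56.5 ± 45.6 TPM, where near-identical copies make the split uncertain.

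Sugar and lipid genes were called in both directions within each list. Of 32 genes of glycolysis and glucose uptake, 12 were higher in H441 and 7 in HT29 (21 and 10 without HT29 library 1). SLC2A3, the neuronal-type glucose transporter, stood at 10.3 ± 0.608 against 0.222 ± 0.193 TPM. ENO1, enolase, stood at 3569 ± 218 against 999 ± 759 TPM. PFKFB3, a regulator of phosphofructokinase, stood at 93.3 ± 7.03 against 29.96 ± 3.35 TPM. ALDOC, an aldolase, stood at 131 ± 6.05 against 46.6 ± 18.7 TPM. HT29 held SLC5A1, the sodium-driven glucose carrier of enterocytes, at 0.106 ± 0.0209 against 30.95 ± 4.47 TPM. HKDC1, a hexokinase-like enzyme, stood at 1.21 ± 0.227 against 61.4 ± 14.2 TPM. SLC16A1, the lactate carrier MCT1, stood at 3.41 ± 0.333 against 118 ± 28.2 TPM. Hypoxia genes were called in 11 cases for H441 and 3 for HT29 of 23 (12 and 8 without HT29 library 1). HIF1A, the oxygen-regulated factor, stood at 501 ± 8.33 against 55.8 ± 23.6 TPM, and BNIP3 and BNIP3L, mitophagy receptors, at 97.1 ± 2.53 against 3.17 ± 0.158 TPM and at 73.8 ± 2.67 against 21.1 ± 11.1 TPM. ANGPTL4, a lipase inhibitor, stood at 60.3 ± 2.31 against 6.76 ± 5.53 TPM. CA9 and CA12, the membrane carbonic anhydrases, were higher in HT29, at 16.9 ± 0.441 against 207 ± 84.1 TPM and at 0.240 ± 0.0767 against 171 ± 65.6 TPM. P4HA2, a collagen hydroxylase, stood at 7.45 ± 0.406 against 28.96 ± 7.50 TPM. Library 1 lay below both other HT29 libraries for 19 of the 23 hypoxia genes, against 36.9% of all genes tested.

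Of 33 fatty acid genes, 13 were higher in H441 and 11 in HT29 (18 and 12 without HT29 library 1). FADS1, the delta-5 desaturase, had 38.5 ± 2.47 against 0.962 ± 0.565 TPM, and ELOVL5, an elongase of polyunsaturated chains, 56.6 ± 0.550 against 1.67 ± 0.661 TPM. SCD, the desaturase that makes oleate, had 172 ± 12.3 against 811 ± 51.2 TPM, and ACSL5, an acyl-CoA synthetase of enterocytes, 65.9 ± 0.570 against 289.9 ± 124 TPM. PLIN2, of lipid droplets, stood at 40.1 ± 1.28 against 7.203 ± 0.258 TPM. ACADM, of beta-oxidation, stood at 63.3 ± 1.13 against 15.8 ± 13.7 TPM. ACSS1, a mitochondrial acetate enzyme, stood at 0.288 ± 0.195 against 18.9 ± 4.83 TPM. Sterol genes gave 6 higher in H441 and 7 in HT29 of 33, against 26.0% and 21.0% over all genes tested. Without HT29 library 1 the numbers were 14 and 7, against 43.7% and 31.5%, and the direction with more calls turned. SOAT1, which esterifies cholesterol, stood at 48.5 ± 2.99 against 7.28 ± 0.960 TPM. NPC2, which exports it from lysosomes, stood at 196 ± 24.7 against 47.2 ± 11.02 TPM. ABCG1, a sterol exporter, stood at 0.105 ± 0.0162 against 20.8 ± 13.6 TPM, its regulator NR1H3 (LXR alpha) at 8.72 ± 0.489 against 33.7 ± 6.79 TPM. SQLE, squalene epoxidase, stood at 87.1 ± 1.39 against 307 ± 122 TPM. IDI1, an early step of the pathway, stood at 42.5, 45.1 and 39.2 TPM in H441 against 238, 84.0 and 78.0 TPM in HT29, with library 1 well above the others.

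Genes of uptake routes, through which nanoparticles can enter cells, differed in both directions. Those called in the joint caveolar and macropinocytosis list were mostly higher in H441. Of 21 caveolar and macropinocytosis genes, 13 were higher in H441 and 2 in HT29 (15 and 4 without HT29 library 1), with a median of 0.86. CAV1 (ENSG00000105974, chromosome 7, 116524785 to 116561184), the coat protein of caveolae, stood at 259, 256 and 261 TPM in H441 against 10.1, 1.28 and 0.434 TPM in HT29, a difference of 6.29 ± 0.74 (adjusted p = 0.000881, and 7.17 ± 0.20 without HT29 library 1). CAVIN2, of the caveolar coat, stood at 30.9 ± 1.33 against 0.441 ± 0.208 TPM. CAVIN1, of the same coat and named after its values were seen, did not follow them. It had 1464, 996 and 1495 recovered reads in H441 against 2572, 1024 and 1388 in HT29, not scaled for depth. EHD3, a membrane-shaping ATPase of endosomes, stood at 6.38 ± 0.423 against 0.0430 ± 0.0199 TPM. NHERF1, a scaffold of microvilli, was higher in HT29, at 63.01 ± 2.02 against 248 ± 94.1 TPM, as was ARHGAP26, of clathrin-independent carriers, at 6.39 ± 0.547 against 13.5 ± 2.90 TPM. Of 32 clathrin pathway genes, 15 were higher in H441 and 4 in HT29 (21 and 6), with a median of 0.68. AP2M1, a subunit of the AP2 adaptor, stood at 293 ± 7.24 against 91.1 ± 43.3 TPM. CLTB, a clathrin light chain, stood at 134 ± 7.12 against 40.1 ± 14.1 TPM. SH3GL1, an endophilin, stood at 109 ± 3.67 against 31.1 ± 3.15 TPM. FCHO1, which starts pits, stood at 9.72 ± 0.471 against 1.66 ± 0.826 TPM. DNM1, the dynamin of neurons, was higher in HT29, at 0.323 ± 0.0890 against 72.1 ± 29.6 TPM. DAB2, an endocytic adaptor, stood at 0.0115 ± 0.0199 against 7.43 ± 0.289 TPM. AP2A2 and EPN1, of the same coat, stood at 12.3 ± 0.400 against 24.7 ± 2.29 TPM and at 12.1 ± 0.529 against 19.3 ± 1.84 TPM.

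Lipoprotein receptors and heparan sulfate proteoglycans, which bind lipoprotein-coated particles, were called in both directions. Of 16 tested lipoprotein and scavenger receptor genes, 7 were higher in H441 and 5 in HT29, and 7 and 8 without HT29 library 1. SCARB1, the HDL receptor, stood at 7.33 ± 0.637 against 36.4 ± 23.1 TPM. SORT1, a sorting receptor for lipoproteins, stood at 0.494 ± 0.184 against 24.9 ± 4.39 TPM. LRP1, a large scavenger receptor, stood at 5.67 ± 0.293 against 22.8 ± 12.1 TPM. LIPG, endothelial lipase, stood at 0.0187 ± 0.0172 against 8.55 ± 3.50 TPM. LRP6, a Wnt coreceptor, stood at 43.3 ± 1.94 against 17.2 ± 2.97 TPM. SORL1, a sorting receptor, stood at 24.7 ± 1.59 against 9.99 ± 3.63 TPM. LRP10 stood at 66.0 ± 4.88 against 33.7 ± 2.20 TPM. LRP2, megalin, stood at 1.27 ± 0.00875 against 0.00457 ± 0.00412 TPM. Of 25 heparan sulfate genes, 14 were higher in H441 and 5 in HT29 (17 and 5), with a median of 0.67. SDC4, a syndecan, stood at 752 ± 66.0 against 194 ± 8.13 TPM. GPC6, a glypican, stood at 14.6 ± 0.556 against 0.0252 ± 0.0436 TPM. HS6ST2, which adds sulfate at the sixth carbon, stood at 101 ± 3.68 against 0.257 ± 0.205 TPM, while SULF2, which removes it, stood at 0.279 ± 0.105 against 97.5 ± 7.56 TPM. HPSE, the heparanase that cuts the chains, stood at 20.2 ± 1.99 against 2.37 ± 1.85 TPM. AGRN, a basement membrane proteoglycan, GPC2, a glypican, and HS3ST1, a sulfotransferase, were higher in HT29 by smaller amounts (-0.66, -1.28 and -0.88).

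Of 43 endosome and lysosome genes, 13 were higher in H441 and 9 in HT29 (22 and 13 without HT29 library 1, and 11 and 12 after trimmed mean scaling, which turned the direction with more calls). The shares over all genes tested were 26.0% and 21.0%, without that library 43.7% and 31.5%, and after that scaling 25.0% and 23.8%. RAB38, a GTPase of lysosome-related organelles such as lamellar bodies, stood at 69.3 ± 2.71 against 0.157 ± 0.0266 TPM. RAB27A, of the same organelles and of exosomes, stood at 79.8 ± 2.24 against 9.61 ± 2.99 TPM. RAB31, of endosomes, stood at 19.2 ± 0.781 against 0.137 ± 0.0483 TPM, and the protease CTSS at 57.7 ± 2.17 against 7.89 ± 2.78 TPM. HT29 held ATP6V1B1, a proton pump subunit, at 0.0182 ± 0.0316 against 10.2 ± 2.69 TPM, and the proteases CTSZ, at 42.2 ± 2.98 against 339 ± 55.9 TPM, and CTSE, at 1.01 ± 0.320 against 12.6 ± 14.8 TPM.

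SCNN1A and SCNN1B, subunits of the epithelial sodium channel, stood at 285 ± 10.05 against 85.7 ± 19.7 TPM and at 9.28 ± 0.362 against 0.0685 ± 0.0491 TPM. CFTR, the chloride channel of gut and airway, stood at 0.256 ± 0.0546 against 35.6 ± 28.5 TPM. ANO1, a calcium-activated chloride channel, stood at 0.0929 ± 0.0343 against 95.8 ± 54.2 TPM. KCNQ1 and its partner KCNE3, the potassium channel that drives chloride secretion, stood at 0.0457 ± 0.0509 against 32.7 ± 1.03 TPM and at 0.128 ± 0.0145 against 56.4 ± 8.01 TPM. AQP4, a water channel, stood at 10.1 ± 0.716 against 0.0417 ± 0.0407 TPM. KCNN4, a calcium-activated potassium channel, stood at 30.1 ± 0.899 against 2.62 ± 1.63 TPM. Over the 26 tested members, 8 were higher in H441 and 10 in HT29 (12 and 12).

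Among 31 proteases and inhibitors, 9 were higher in H441 and 12 in HT29 (12 and 17). MMP14, a membrane metalloprotease, stood at 222 ± 2.99 against 7.48 ± 3.16 TPM. CST6, a cystatin, stood at 111 ± 10.9 against 1.37 ± 1.60 TPM. MMP7, matrilysin, stood at 4.99, 5.74 and 5.10 TPM in H441 against 1169, 124 and 127 TPM in HT29, with library 1 far above the others, a difference of -5.41 with it and -4.34 without it. KLK11 and KLK10, kallikreins, stood at 0.281 ± 0.0868 against 117 ± 1.81 TPM and at 0.292 ± 0.237 against 76.7 ± 66.6 TPM. Of 19 S100 and cornified envelope genes, 6 were higher in H441 and 2 in HT29 (8 and 5). IVL, involucrin, stood at 34.98 ± 1.25 against 0.154 ± 0.172 TPM. SPRR1B, another envelope protein, stood at 13.3 ± 4.49 against 2.35 ± 3.44 TPM. S100A9, a calprotectin subunit, stood at 53.9 ± 2.55 against 0.898 ± 0.710 TPM. S100A2 stood at 237 ± 49.8 against 19.5 ± 6.19 TPM. S100A6 was high in both lines, at 2525 ± 228 against 4567 ± 1275 TPM.

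Glycosyltransferases differed in both directions, with 13 of 31 higher in H441 and 10 in HT29 (16 and 13). B3GNT6, which makes core 3 of mucin glycans, stood at 93.8 ± 8.59 against 0.197 ± 0.156 TPM. GCNT3, which makes branched cores, stood at 6.83 ± 0.558 against 288 ± 20.7 TPM. FUT8, the core fucosyltransferase, stood at 155 ± 2.20 against 4.75 ± 1.22 TPM. FUT4, of Lewis antigens, stood at 0.260 ± 0.158 against 47.7 ± 35.1 TPM. ST6GALNAC1, which makes sialyl-Tn, stood at 77.2 ± 0.929 against 2.21 ± 1.22 TPM. ST3GAL1, which caps core 1, stood at 8.41 ± 0.609 against 265 ± 118 TPM. GALNT6, which starts mucin chains, stood at 63.7 ± 3.17 against 4.52 ± 1.004 TPM. MGAT3, which adds bisecting residues, stood at 0.481 ± 0.0419 against 4.49 ± 0.960 TPM. Of 8 tested cancer-testis and oncofetal genes, 4 were higher in H441 and 3 in HT29. CT83 stood at 85.2 ± 5.16 against 0.376 ± 0.461 TPM. TDRD1, of the piRNA pathway, stood at 43.97 ± 0.829 against 0.121 ± 0.0663 TPM. PRAME stood at 8.78 ± 0.471 against 0.218 ± 0.183 TPM. MAGEA3 and MAGEA12, near-identical X-linked genes, stood at 8.52 ± 3.92 TPM in HT29 (listed at 0 in all 3 H441 libraries) and at 2.66 ± 0.0911 TPM in HT29 (listed at 0 in all 3 H441 libraries). IGF2BP3, an oncofetal RNA-binding protein, stood at 6.05 ± 0.421 against 23.7 ± 12.4 TPM.

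Among the 44 lists, the cell cycle list had the largest change in its share of called members when HT29 library 1 was left out. Of 33 tested, 6 were higher in H441 and 0 in HT29 with all libraries, with a median of 0.97, against 26.0% and 21.0% over all genes. Without library 1 the numbers were 28 and 1 with a median of 1.42, against 43.7% and 31.5% over all genes. In HT29 limma gave 0 at an unadjusted p under 0.05 with all libraries, as did edgeR at its adjusted threshold. Library 1 exceeded both other HT29 libraries in 31 of the 33, against 53.1% of all genes tested. The median excess was 1.64 on the log2 scale against 0.14 over all genes tested. CCNE2, cyclin E2 of S phase entry, stood at 36.05, 34.6 and 34.1 TPM in H441 against 15.9, 1.66 and 1.59 TPM in HT29, a difference of 2.88 ± 0.74 (adjusted p = 0.0208, and 3.77 ± 0.07 without HT29 library 1). BUB1 and AURKB, kinases of mitosis, stood at 129 ± 2.38 against 46.2 ± 22.7 TPM and at 145 ± 3.75 against 61.5 ± 10.8 TPM. TOP2A, topoisomerase II alpha, stood at 575 ± 18.05 against 269 ± 72.1 TPM. Both members named next were chosen after their values were seen. MCM5, of the replicative helicase, stood at 64.4, 71.5 and 68.6 TPM in H441 against 51.8, 7.01 and 6.21 TPM in HT29. RRM2, a subunit of ribonucleotide reductase, stood at 400.4, 404 and 388 TPM in H441 against 426, 32.5 and 29.8 TPM in HT29. For both, library 1 lay near the H441 level and libraries 2 and 3 far below it, so neither passed with all libraries (by limma, adjusted p = 0.0540 and 0.103) and both did without it (adjusted p = 5.91e-06 and 2.93e-06). Of 30 genes of cyclin D, CDK inhibitors and p53 targets, 7 were higher in H441 and 5 in HT29 (16 and 11 without library 1). By edgeR the numbers were 7 and 8, which turned the direction with more calls. The shares over all genes tested were 26.0% and 21.0%, and 43.7% and 31.5% without library 1. TP63, a p53 relative of basal epithelium, stood at 6.09 ± 0.232 against 0.112 ± 0.0336 TPM. TP53I3, a p53 target, stood at 82.9 ± 3.25 against 8.35 ± 4.54 TPM. FAS, the death receptor, stood at 36.4 ± 1.82 against 8.20 ± 4.74 TPM. CDKN2C, a CDK4 inhibitor, stood at 35.1 ± 2.69 against 7.02 ± 2.20 TPM. CDKN2A, which encodes p16 and ARF, stood at 14.6 ± 0.631 against 49.0 ± 16.2 TPM. PLK2, a p53-responsive kinase, stood at 10.8 ± 1.73 against 157 ± 55.8 TPM. Mitochondrially encoded mRNAs, 13 genes, gave 0 calls with all libraries by limma, 1 at an unadjusted p under 0.05, and 0 by edgeR, and 6 higher in HT29 without library 1.

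**Figure D4:**
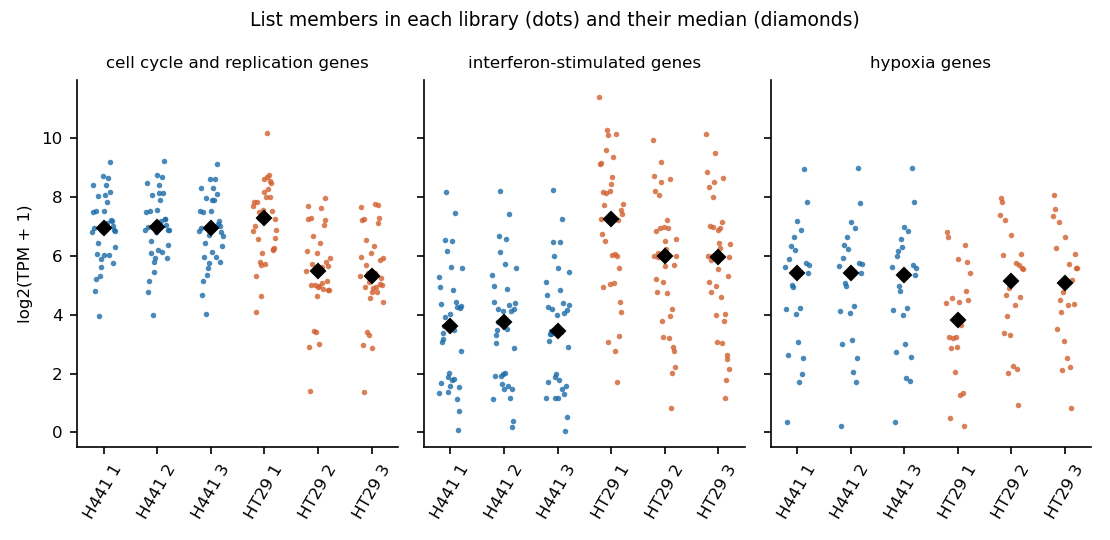
Levels of the members of 3 gene lists in each of the 6 libraries, as log2(TPM + 1), with 1 dot per gene and a diamond at the median. HT29 library 1 lies above HT29 libraries 2 and 3 for cell cycle and interferon-stimulated genes and below them for hypoxia genes, and the H441 libraries lie level with one another.

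In all, 1007 list members were tested and 644 of them were called (64.0%), 317 higher in H441 and 327 in HT29, against 47.0% of all genes tested. The lists were written with earlier results of these data known, so this share is no independent result. Of 44 lists, 23 had a median above 0. The list shares plotted by direction show the HOX, mucin, Wnt, interferon, brush border and class I lists on the HT29 side. The alveolar, class II, mesenchymal, and joint caveolar and macropinocytosis lists are on the H441 side.

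**Figure D5:**
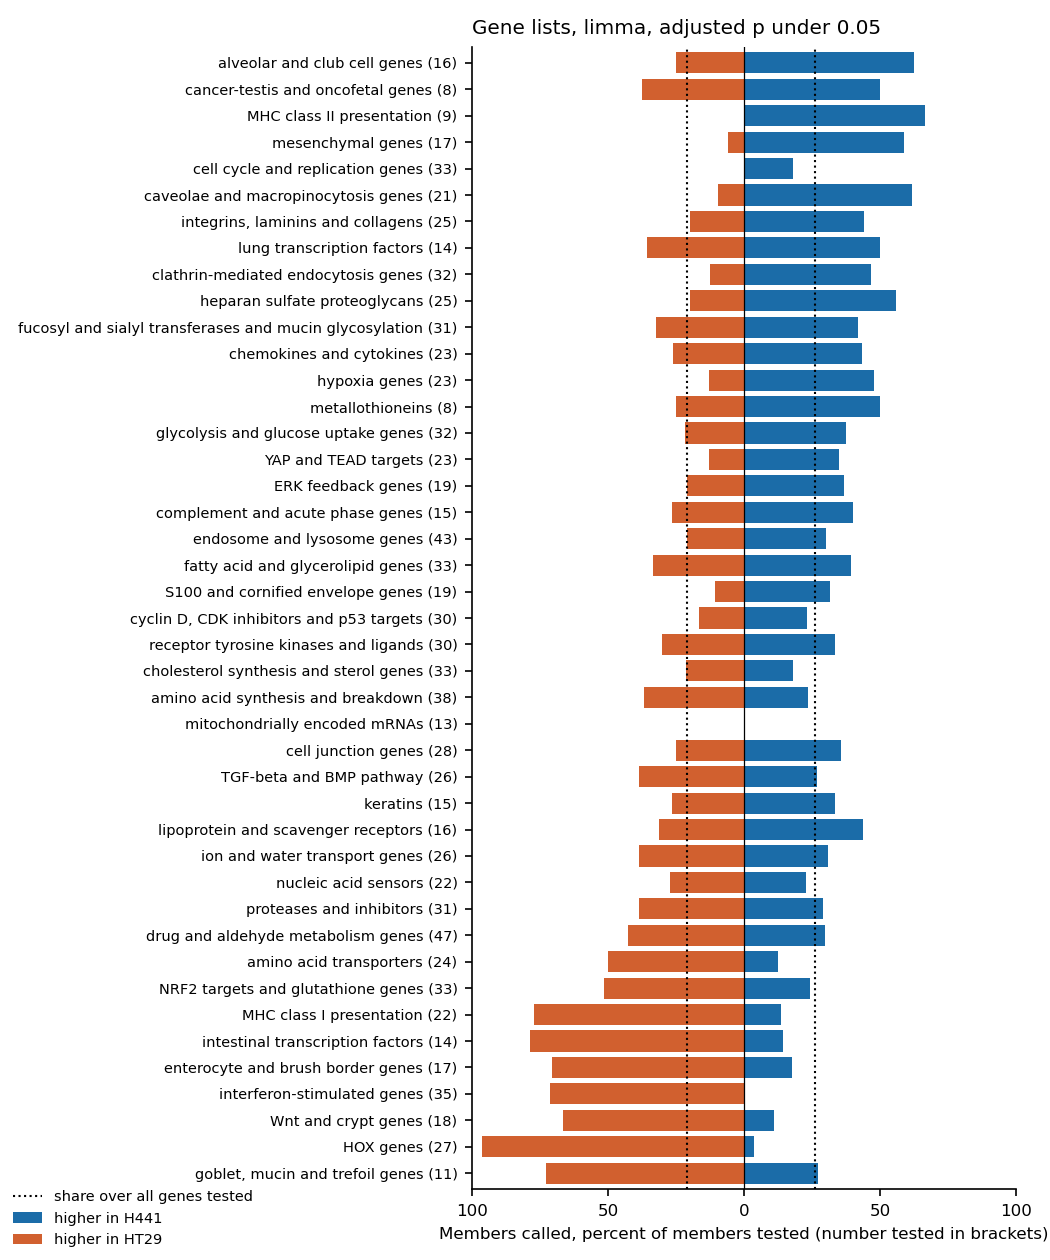
Percent of tested members of each gene list that limma called higher in H441 (blue, to the right) and in HT29 (orange, to the left), with all 6 libraries, in order of the median difference. Dotted lines mark the shares over all genes tested, 26.0% and 21.0%.

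The same comparison in HPLM used 6 other libraries and the same genes. Limma called 13170 genes there (78.2%), 8560 higher in H441 (50.8%) and 4610 in HT29 (27.4%), and after trimmed mean scaling 6831 and 6741. Of the 5093 genes that differed by a 2-fold change or more in RPMI-1640, 4838 had the same call in HPLM, 234 had none and 21 had the opposite one. The HOX list gave 26 higher in HT29 in both media, the interferon-stimulated list 35 of 35 in HPLM, and the cell cycle list 32 higher in H441. For 6 of the 44 lists the direction with more calls turned from HT29 in RPMI-1640 to H441 in HPLM, and for 3 of these 6 it also turned after trimmed mean scaling. Amino acid transporters went from 3 higher in H441 and 12 in HT29 to 14 and 9, with a median of -0.52 and then 0.56 (1 and 12 to 12 and 10 after that scaling). Amino acid enzymes went from 9 and 14 to 23 and 10 (9 and 13 to 17 and 14), and sterol genes from 6 and 7 to 26 and 4 (5 and 7 to 21 and 6). NRF2 targets and glutathione genes went from 8 and 17 to 18 and 12, with a median of -0.54 and then 0.41, and stood at 15 and 15 in HPLM after that scaling. The TGF-beta and BMP list went from 7 and 10 to 14 and 8 (11 and 13 in HPLM after that scaling), and the nucleic acid sensors from 5 and 6 to 12 and 9 (7 and 11). The median over all genes tested was 0.32 in HPLM. Whether a list's change differed from that of all genes was not tested. A test of the difference for single genes, the line by medium interaction over all 12 libraries, called 2845 genes (16.9%), and 6760 without HT29 RPMI-1640 library 1. The interaction is the difference between lines in HPLM minus that in RPMI-1640. HMOX1 stood at 38.4 ± 2.23 against 14.8 ± 7.60 TPM in RPMI-1640, and at 572 ± 18.1 against 3.90 ± 0.523 TPM in HPLM, an interaction of 5.41 (adjusted p = 0.000101). AKR1B10 stood at 11.3 ± 2.46 against 1339 ± 407 TPM in RPMI-1640, and at 6.79 ± 0.912 against 33.1 ± 3.27 TPM in HPLM, an interaction of 4.60 (adjusted p = 5.06e-05). HSPA1A, an inducible HSP70 gene with a near-identical copy, changed sides. It stood at 27.5 ± 3.16 against 155 ± 10.7 TPM in RPMI-1640, and at 198 ± 8.42 against 72.98 ± 2.36 TPM in HPLM, an interaction of 3.89 (adjusted p = 6.64e-07). NMRAL2P, a pseudogene, stood at 11.99 ± 0.525 against 22.7 ± 13.7 TPM in RPMI-1640, and at 23.9 ± 0.256 against 2.06 ± 0.209 TPM in HPLM, an interaction of 3.65 (adjusted p = 0.00309), and TFF1 had an interaction of 3.49 (adjusted p = 0.00574). The 5 genes with the most negative interaction were short RNA or immunoglobulin genes of low level in RPMI-1640, IGLV2-14, RNU7-40P, RNU6-689P, SNORA15B-1 and MIR4677, from -4.37 (adjusted p = 0.0447) to -3.42 (adjusted p = 0.0125).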

How the data were processed

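RNA-seq of polyadenylated transcripts was done on both lines (TruSeq kit, per the labels' protocols), and whether counting used strand is not given in the sources used here. The authors deposited TPM per gene and library for each line, and, in a table of media comparisons, read counts divided by a library size factor, here called a signal. The submitters' processing notes name Trimmomatic 0.36, STAR 2.5.2b, Subread 1.5.2, DESeq2 and GRCh38, with no roles. Dividing the deposited signal by its smallest step gave whole reads for 100% of values within 0.01 read, and for genes in only 1 line's table reads came from TPM and relative length, whole within 0.1 read. Depth was 14151527 to 30581810 recovered reads in the RPMI-1640 libraries.

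Genes with at least 1 TPM in 3 of 6 libraries were tested with limma 3.58.1 (R 4.3.3) on log2(TPM + 1), with Benjamini-Hochberg adjustment over all genes tested and a threshold of 0.05. EdgeR 4.0.16 and DESeq2 1.42.0 on recovered reads were alternatives, and edgeR on genes in either table was added after seeing the data. The fits were tested on simulated data in which each gene had the same spread in both lines. The wider spread among the HT29 libraries was not simulated, so that test does not cover it. Figures were drawn with matplotlib 3.10.9. Promoters are from RefSeq (GRCh38.p14).

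The gene set, lists and tests were chosen with earlier results of these data known. Named genes are the 15 largest differences per direction (mean of 5 TPM or more, called with and without HT29 library 1, ranges apart), up to 4 called members per list and direction, a few lineage markers, and the 5 largest interactions per direction. Some genes are not reported here, though counts over lists include them.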

Additional observations from a re-analysis of the deposited data

Results flagged for a closer look

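The difference between the lines itself differed between RPMI-1640 and HPLM for 2845 genes by limma's interaction term, with all 12 libraries, and all 2845 also passed without HT29 RPMI-1640 library 1. In 2299 of them the signed difference H441 minus HT29 was higher in HPLM, which for a gene higher in HT29 can mean a smaller gap. Over all genes tested its median was 0.11 in RPMI-1640 and 0.32 in HPLM. After trimmed mean scaling these medians were 0.008 and -0.015. How much of the 2299 goes with that general shift was not tested. Values below are the change of the difference H441 minus HT29 from RPMI-1640 to HPLM on the log2(TPM + 1) scale, for the genes named above by size. The change was upward for HMOX1 (5.41), AKR1B10 (4.60), HSPA1A (3.89), NMRAL2P (3.65) and TFF1 (3.49). It was upward by less for ALDH1A1 (1.51), CDH17 (1.36), GPX2 (1.16), KRT16P2 (1.13), KRT7 (1.68), SFTPB (1.15) and TM4SF4 (1.74). It was downward for IGLV2-14 (-4.37), MIR4677 (-3.42), PLAT (-0.78), RNASE1 (-2.08), RNU6-689P (-3.57), RNU7-40P (-3.82) and SNORA15B-1 (-3.52). Over all genes tested, 131 were called in both media in opposite directions.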

How the results depend on the processing

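Over the 44 gene lists and the marker lists of other cell types, 1007 members tested gave 644 calls, and 526 to 876 when 1 library was left out. With all libraries limma called 7924 genes, and leaving out 1 library gave 5722 to 12655, of which 3178 to 7355 were higher in H441 and 2528 to 5300 in HT29. The upper ends are without HT29 library 1. Weights estimated per library gave 14472 calls, 8137 higher in H441 and 6335 in HT29, with a weight of 0.042 for HT29 library 1 and 22.3 for HT29 library 2. Limma's treat test against a log2 difference of 1 gave 2371, 1374 and 997. EdgeR on recovered reads of genes in either table, without HT29 library 1, an alternative chosen after seeing the data, gave 13785, 6806 and 6979. Pseudocounts of 0.1 and 0.5, other filters, other scalings and count tests stayed within 1.5 times the count. The count tests turned the direction with more calls to HT29. For genes in both tables edgeR gave 3055 higher in H441 and 3426 in HT29, and DESeq2 gave 3420 and 3862. The interaction count of 2845 became 6760 without HT29 RPMI-1640 library 1 and 2617 after trimmed mean scaling, and leaving out 1 HPLM library gave 12498 to 12882 calls between the lines in HPLM. Why these counts moved was not tested.

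Of 307 genes named above and called, 25 lost the call under at least 1 alternative, 0 of them without HT29 library 1, and 0 reversed. The treat test and edgeR without HT29 library 1 were left out here, so calls lost under treat are not counted. The difference of SNORA15B-1, not called, was -0.049 with library weights, the opposite sign. That of CD3D, not called, was -0.19 without HT29 library 3, also the opposite sign, and 0.81 without HT29 library 1. For 10 of the 44 lists the median changed sign and for 8 the direction with more calls changed under at least 1 limma alternative. The treat test and the count tests were not part of these numbers. EdgeR on recovered reads of genes in either table also turned the list of cyclin D, CDK inhibitors and p53 targets, from 7 and 5 to 7 and 8. Without HT29 library 1 that direction changed for keratins, cell junction, amino acid enzymes, sterol genes and lipoprotein receptors. Leaving out any 1 of the other libraries turned the fatty acid list, for example to 7 and 10 without H441 library 1, and leaving out any 1 H441 library turned the ion list to 8 and 7. With library number as a replicate block limma called 6787 genes, 6 of the named genes lost their call, and the library numbers did not pair, with correlations of deviations from -0.04 to 0.05 between lines. TPM keeps no depth, HT29 library 1 had the fewest reads, and 3 libraries against 3 cannot go below 0.10 in an exact permutation test.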
